A study of Mus musculus with 2 samples.

Results

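The collagen gene family was examined in hearts of C57BL/6J mice, males of 10 weeks, taken 3 days after surgery. In the infarct group, the left anterior descending coronary artery had been tied off for good, and in the sham group the chest was operated on in the same way with the artery left untied. The hearts of 3 mice were mixed per group, and the RNA was hybridised to 1 array per pool, so that each group was 1 sample without a replicate. Neither the labels nor the methods separate the damaged wall from the remote muscle. Members were all genes whose own probe sets carried a symbol of the form Col, number, a, number in the annotation of the array: 42 of 18193 genes, with 82 of 34945 probe sets. Values are log2 values and every difference is infarct minus sham on that scale, where 1 is 2-fold. Of several probe sets for a gene, that of highest mean value was used, and the gene was called bright if that mean over both arrays reached 6.36, the median of all probe sets. This held for 25 of the 42 collagen genes and for 11662 of all genes. With 1 array per group no test could be run. Bright probe sets of 1 gene differed among themselves with an SD of 0.22 in their difference (4976 genes), which covers the probes and not the mice.

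Collagens are the main structural proteins of connective tissue, each built of alpha chains wound around each other into a helix. Fibrillar types (I, II, III, V, XI, XXIV and XXVII) form the fibres that bear load, and type V starts and limits them. Type IV chains form the sheet-like net of basement membranes, types VIII and X form other nets, type VI forms beaded filaments around cells, and the FACIT types sit on the surface of fibrils. In the heart, fibroblasts make most of the interstitial collagen, and after an infarct the dead muscle is replaced by a collagen scar. The comparison asked which of these genes differ early after infarction, before the scar has matured.

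Heart muscle itself was well represented in both pools. All 8 cardiomyocyte markers were bright, with mean values of 14.2 (sham) and 14.0 (infarct) and differences between -0.39 (Ryr2) and -0.010 (Tnnt2). The sham values of Myh6 (14.85) and Myl2 (14.84) came near the highest value on either array (14.90). Whether this limits the differences of these markers was not tested. In bulk tissue, fewer cells of a type cannot be told apart from less RNA per cell. The zero of the scale depended on the reference. The mean difference was 0.37 over 11 housekeeping genes (from -0.44 to 1.12), -0.32 over 18 hybridisation control probe sets and 0.057 over 24 poly-A control probe sets. Setting the housekeeping genes to 0 shifts the median of all bright genes by -0.37 (values below called housekeeping-centred), and setting the hybridisation controls to 0 shifts it by 0.32 (control-centred). A difference smaller than these shifts has no settled sign, and 5 of the 8 cardiomyocyte markers lay above 0 when control-centred.

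The collagen genes were mostly higher in the infarct pool. Of the 25 bright members, 21 lay above 0 (84.0%, against 49.6% of all bright genes), 6 were at least 2-fold higher and 0 were at least 2-fold lower. The background is 3.62% of all bright genes at least 2-fold higher and 1.23% at least 2-fold lower, while the share of bright collagen genes at least 2-fold higher was 24.0%. Their median was 0.50, and the median over all bright genes was 0. The 49.6% holds for the deposited zero only. At the other zeros the share of all bright genes above 0 was not counted, so the counts above 0 there have no background. Housekeeping-centred, 15 of the 25 lay above 0, 1 was at least 2-fold higher (background 1.58%) and 2 were at least 2-fold lower (background 5.08%). The collagen median was then 0.13, against -0.37 over all bright genes. Control-centred, 23 lay above 0, 9 were at least 2-fold higher (background 7.89%) and 0 lower (background 0.334%). The collagen median was then 0.82, against 0.32 over all bright genes. Centred on the poly-A controls, 20 lay above 0 and 6 were at least 2-fold higher (background 3.16%). The collagen median was then 0.44, against -0.057 over all bright genes. The 6 genes at the deposited zero were Col8a1, Col4a1, Col5a2, Col6a3, Col15a1 and Col5a1, which come from 5 of the 8 classes. Taking in the 17 dim members, 28 of 42 genes lay above 0 and 7 were at least 2-fold higher, with a median of 0.30. Over all 18193 genes, dim ones included, 8306 lay above 0 and 468 were at least 2-fold higher (2.57%), with a median of -0.025.

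**Figure D1:**
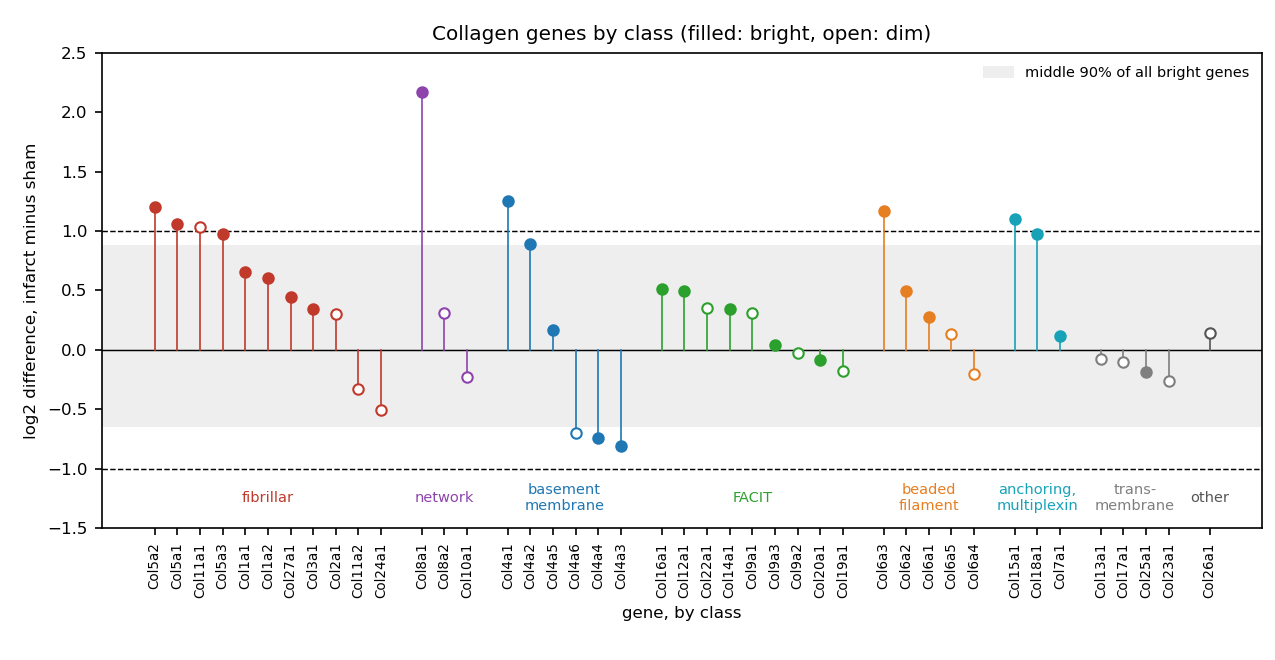
Log2 difference (infarct minus sham) of each of the 42 collagen genes by class, with filled points for bright genes, open points for dim ones, dashed lines at 2-fold and a grey band for the middle 90% of all bright genes (-0.64 to 0.87). Col8a1 stands highest at 2.17, and the basement membrane class runs from 1.25 (Col4a1) down to -0.81 (Col4a3).

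RefSeq promoter windows (assembly GRCm38.p6), which reach from 250 bases before a gene's start to 50 bases after it, matched 33 of the 42 genes by symbol. The bases before the start are shown here for 4 of them: Col8a1, because it had the largest difference; Col4a1 and Col4a4, because each belongs to a pair of neighbouring type IV genes whose members differed in the same direction; and Col1a2, as a fibrillar gene. They lie at chr16:57754738-57754987 (minus strand), chr8:11312827-11313076 (minus), chr1:82586850-82587099 (minus) and chr6:4505368-4505617 (plus). Capitals mark matches, on either strand, to any of 5 short motifs. These were the TATA box with the letters TATAAA, the box known by its letters CCAAT, the so-called GC box, which binds Sp1-type factors and reads GGGCGG, the element of the TEAD factors, spelled CATTCC, and the element of the SMAD factors downstream of TGF-beta, spelled CAGAC.
Col8a1: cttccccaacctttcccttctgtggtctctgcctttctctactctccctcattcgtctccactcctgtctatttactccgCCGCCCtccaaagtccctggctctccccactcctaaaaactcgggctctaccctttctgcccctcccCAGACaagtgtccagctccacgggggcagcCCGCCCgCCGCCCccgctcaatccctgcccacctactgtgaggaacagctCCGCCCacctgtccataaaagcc
Col4a1: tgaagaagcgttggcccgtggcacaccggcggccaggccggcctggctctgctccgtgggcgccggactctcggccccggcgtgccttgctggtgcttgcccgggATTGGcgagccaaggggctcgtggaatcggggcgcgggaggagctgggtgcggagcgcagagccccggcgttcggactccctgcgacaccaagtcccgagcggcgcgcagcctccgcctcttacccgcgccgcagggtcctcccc
Col4a4: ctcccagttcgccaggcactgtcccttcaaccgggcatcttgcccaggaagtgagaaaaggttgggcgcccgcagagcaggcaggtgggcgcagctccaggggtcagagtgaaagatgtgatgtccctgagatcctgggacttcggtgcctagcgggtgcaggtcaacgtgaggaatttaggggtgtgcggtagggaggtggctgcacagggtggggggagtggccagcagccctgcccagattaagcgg
Col1a2: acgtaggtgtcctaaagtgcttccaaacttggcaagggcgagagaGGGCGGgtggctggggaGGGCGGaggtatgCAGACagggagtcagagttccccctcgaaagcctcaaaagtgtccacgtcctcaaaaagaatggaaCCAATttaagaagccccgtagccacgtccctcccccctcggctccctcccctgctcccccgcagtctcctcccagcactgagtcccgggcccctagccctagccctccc
The stretch of Col8a1 holds 4 GC boxes (170, 73, 66 and 23 bases before the start) and 1 SMAD element, that of Col4a1 holds 1 CCAAT box (145 bases before the start), and that of Col4a4 holds none of these letters. The stretch of Col1a2 holds 2 GC boxes, 1 CCAAT box and 1 SMAD element. None of these matches overlap. Over the whole windows, a GC box was found in 61.1% of the 36 collagen windows and in 35.7% of all 32851 windows. The other shares were close to those of all promoters: 36.1% against 37.4% for the CCAAT box, 13.9% against 13.6% for the TATA box, 13.9% against 14.7% for the TEAD element and 50% against 49.6% for the SMAD element. A match is a run of letters and not a bound site.

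Among the bright fibrillar collagens, the largest differences were those of the type V genes Col5a2 and Col5a1, also with the probe sets of a gene averaged (1.25 and 0.99). Col5a2 had values of 11.63 (sham) and 12.83 (infarct), a difference of 1.20 or 2.30-fold. Its second probe set gave 1.31. Col5a1, the partner chain of Col5a2 in the usual type V molecule, went from 10.80 to 11.87 (1.06), with 1.03 and 0.88 by its other probe sets. All 5 probe sets of these 2 genes were thus higher in the infarct pool, by 0.88 to 1.31. Col5a3, which encodes a less common type V chain, went from 7.98 to 8.95 (0.97), but its dim second probe set gave -0.14 and the average of both was 0.42, below that of Col1a2 (0.85). The chains of type V differed from each other by at most 0.23 in these values, about the SD between probe sets of 1 gene.

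By their brightest probe sets, the main fibre-forming genes Col1a1, Col1a2 and Col3a1 differed less than Col5a1 and Col5a2. This also held with the probe sets of a gene averaged (0.42, 0.85 and 0.50 against 0.99 and 1.25). Single probe sets overlapped, as the other 2 of Col1a2 reached the range of Col5a1 (0.88 to 1.06). Col1a1 went from 12.31 to 12.96 (0.65, 1.57-fold), and by its second probe set from 10.21 to 10.39, a difference of 0.19 that was -0.18 when housekeeping-centred. Col1a2 went from 13.20 to 13.80 (0.60, 1.52-fold), with 0.88 and 1.07 by its other probe sets, the latter dim. The partner chains of type I were therefore 0.047 apart, far less than the ranges of their own probe sets. Col3a1, whose product forms mixed fibres with type I, went from 13.97 to 14.31 (0.34, 1.27-fold), and its second probe set went from 10.92 to 11.57 (0.65). It lies beside Col5a2 on chromosome 1, and the difference of Col3a1 minus that of Col5a2 was -0.86. Housekeeping-centred, the brightest probe set of Col3a1 lay below 0 (-0.026), while those of Col1a1 (0.29) and Col1a2 (0.24) stayed above it. Over the 14 collagen genes with at least 2 bright probe sets, the brightest gave the lowest difference in 7 and not in the other 7. The infarct values of Col3a1 (14.31) and Col1a2 (13.80) came near the highest value on either array (14.90). Whether this limits their differences was not tested.

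The remaining fibrillar genes were dim or moderate. Col27a1, a cartilage-rich fibrillar collagen, went from 7.78 to 8.22 (0.44), and its second probe set from 6.76 to 7.44 (0.68). Col11a1, which can replace type V chains in fibrils, was dim in both pools (4.88 and 5.91), so that its difference of 1.03 rests on little signal. Its second probe set gave 0.74. The dim genes Col2a1, the main collagen of cartilage, Col11a2 and Col24a1 differed by 0.30, -0.33 and -0.51. In all, the median over the 7 bright fibrillar genes was 0.65, with every one above 0 (6 of 7 when housekeeping-centred), and over the 11 with the dim ones it was 0.60.

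**Figure D2:**
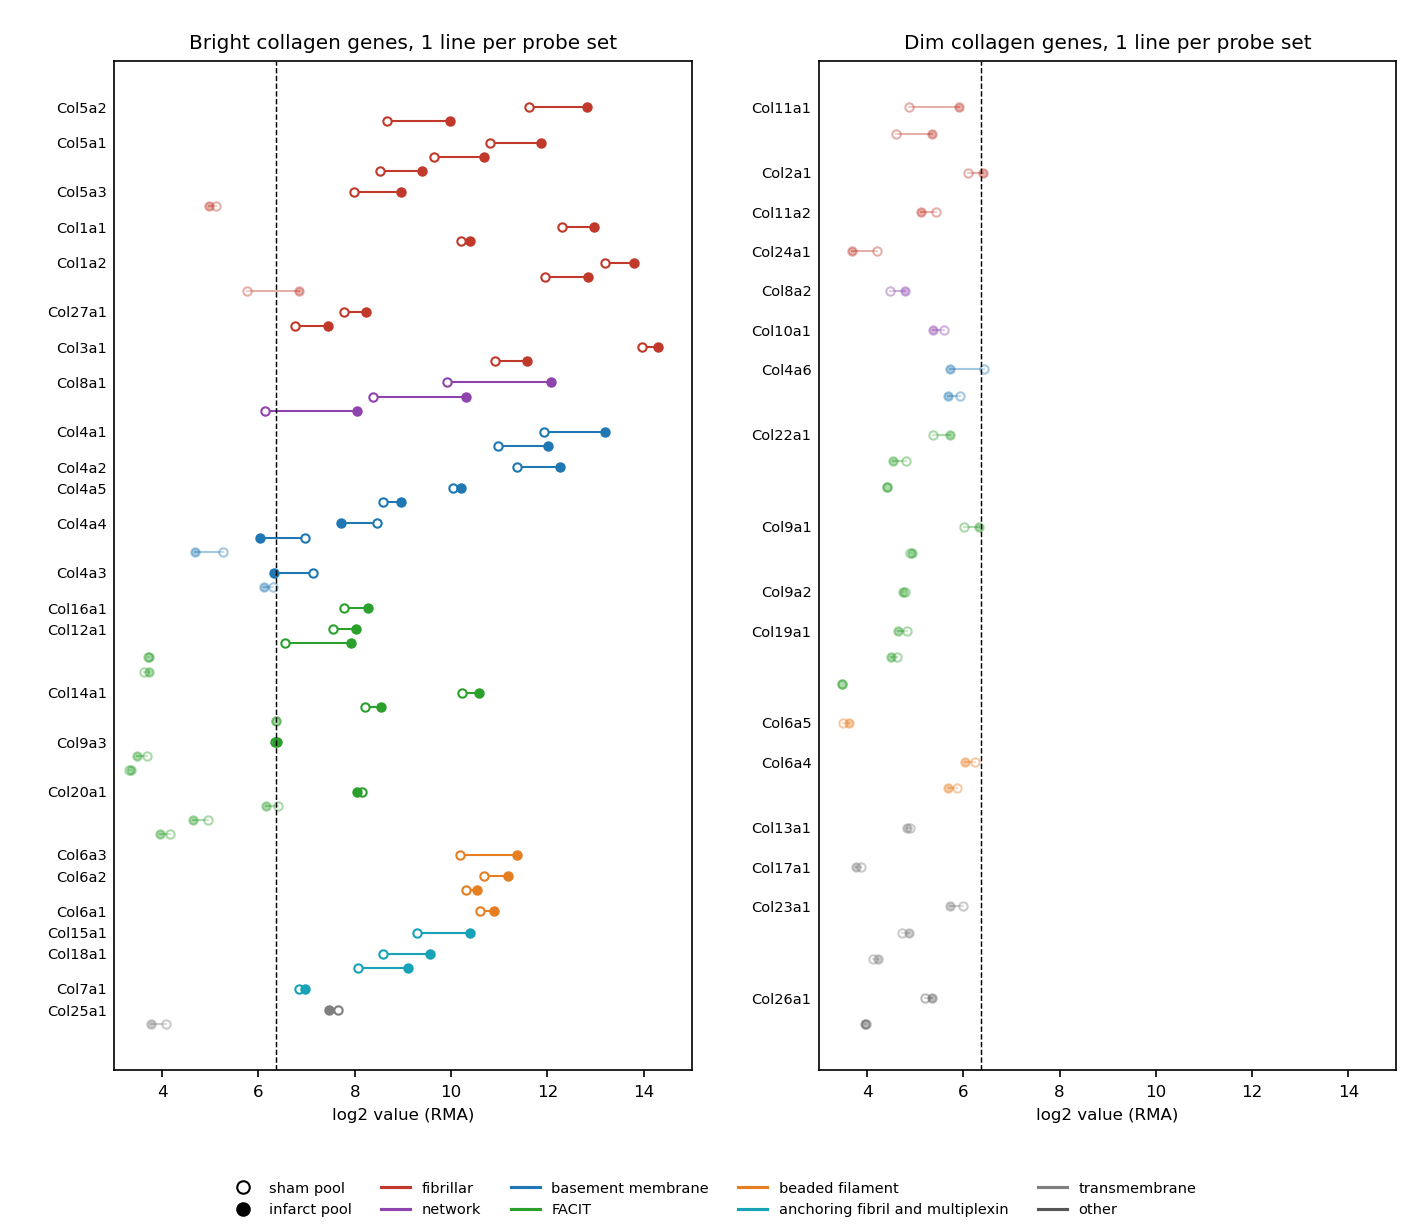
Log2 values of every probe set of the 42 collagen genes with open circles for sham and filled circles for infarct, 1 line per probe set with the brightest first, in the colour of the class, paler where the probe set is dim, and with the dashed line at the brightness limit of 6.36. All 3 probe sets of Col8a1 are higher in the infarct pool, and all 3 of Col4a4 are lower.

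The network-forming gene Col8a1 had the largest difference of the whole family. It encodes the alpha1 chain of type VIII collagen, a short-chain collagen of vessel walls and of the corneal endothelium's membrane. Its brightest probe set went from 9.91 (sham) to 12.08 (infarct), a difference of 2.17 (4.50-fold). The other probe sets went from 8.37 to 10.30 (1.93) and from 6.14 to 8.05 (1.91). Its lowest value under any setting tried was 1.81, when housekeeping-centred, and it ranked 28 of 11662 bright genes from the top. The next collagen, Col4a1, ranked 230. Col8a2, which encodes the partner chain of type VIII, was dim in both pools (4.48 and 4.79), with a difference of 0.31. Col10a1, the related collagen of growth plate cartilage, was dim as well (5.61 and 5.38), with a difference of -0.23. The network class thus held 1 bright gene, and its median is the value of Col8a1.

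The basement membrane genes went in opposite directions by chain. Col4a1 and Col4a2, whose chains make up the type IV collagen of nearly all basement membranes, including those around vessels and muscle cells, were higher in the infarct pool. Col4a1 went from 11.94 to 13.19 (1.25, 2.38-fold), with 1.05 by its second probe set. Col4a2 went from 11.37 to 12.26 (0.89, 1.85-fold) on its only probe set. These genes lie head to head on chromosome 8, and their promoter windows overlap by 78 bases. Their difference from each other was 0.36.

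Col4a3 and Col4a4 were lower in the infarct pool. Their chains form, with that of Col4a5, the type IV net of the kidney glomerulus and a few other specialised membranes. Col4a4 went from 8.47 to 7.72 (-0.74, 1.67-fold lower), and its other probe sets from 6.96 to 6.04 (-0.92) and from 5.27 to 4.69 (-0.58). Col4a3 went from 7.13 to 6.32 (-0.81), so that its infarct value was just under the brightness limit, and its dim second probe set gave -0.19. All 5 probe sets of these genes lay below 0, and 4 of the 5 did when control-centred, the dim one of Col4a3 then being at 0.13. The values of the genes were -0.42 (Col4a4) and -0.49 (Col4a3) when control-centred and -1.11 and -1.18 when housekeeping-centred. The genes are neighbours with overlapping spans on chromosome 1, and the difference of Col4a3 minus that of Col4a4 was -0.068. The difference of Col4a1 minus that of Col4a4 was 1.99, a gap that does not depend on the zero of the scale.

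Of the third pair of neighbours, on the X chromosome, Col4a5 went from 10.04 to 10.21 (0.17), with 0.38 by its second probe set, and Col4a6 from 6.43 to 5.73 (-0.70), with -0.26 by its second. Col4a6 was dim, and its chain joins that of Col4a5 in some smooth muscle and epithelial membranes. Col4a5 lay below 0 (-0.20) when housekeeping-centred. Of the type IV genes 5 were bright, with a median of 0.17, which is the value of Col4a5 and a middle between opposite ones. With Col4a6, the median of all 6 was -0.27. Some markers of other cell types lay below 0 as well. This held for all 5 epicardial markers (4 when control-centred), from -1.33 (Upk3b) to -0.25 (Wt1), whose mean value was 8.03 (sham) and 7.30 (infarct). It held for 4 of 6 pericyte markers (3 when control-centred), with Abcc9 lowest at -0.93 and mean values of 10.52 and 10.22. Of the 10 endothelial markers 7 lay above 0 (2 when housekeeping-centred), with mean values of 9.60 and 9.75. The median of all bright genes was -0.37 when housekeeping-centred and 0.32 when control-centred. The part of these cell types in the type IV values was not tested.

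**Figure D3:**
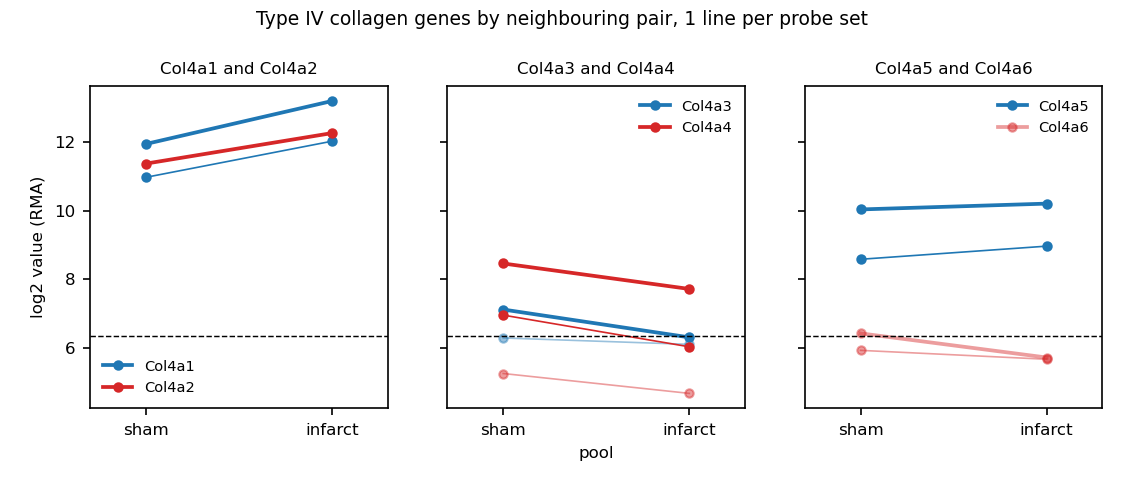
Log2 values of the 6 type IV collagen genes in the sham and the infarct pool, 1 line per probe set (the brightest of a gene thick, dim ones pale), in 3 panels by neighbouring pair, with the dashed line at the brightness limit. As deposited, all lines of Col4a1 and Col4a2 go up, all lines of Col4a3 and Col4a4 go down, and those of Col4a5 and Col4a6 go up and down, respectively. The thick line of Col4a5 turns when housekeeping-centred (-0.20), and the weaker lines of Col4a3 (0.13) and Col4a6 (0.059) turn when control-centred.

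By their brightest probe sets, the FACIT genes differed by 0.51 at most. Col16a1 went from 7.77 to 8.28 (0.51) and Col12a1 from 7.54 to 8.04 (0.50). The second bright probe set of Col12a1, a collagen of tissues under tension, went from 6.56 to 7.93 (1.36), the widest gap (0.87) between bright probe sets of 1 collagen gene. Its 2 other probe sets were dim and differed by 0.018 and 0.12. Col14a1, one of the fibrosis markers of the study, went from 10.23 to 10.58 (0.35), with 0.31 by its second probe set, but was -0.021 when housekeeping-centred. Col9a3 (0.038, and -0.33 when housekeeping-centred) and Col20a1 (-0.089, and 0.23 when control-centred) had no settled sign. The only bright probe set of Col20a1 can bind more than 1 transcript. The dim ones of Col20a1 gave -0.25, -0.32 and -0.20, and 0.071, 0.0024 and 0.11 when control-centred. The 5 bright FACIT genes had a median of 0.35, and 4 of them lay above 0. The 4 dim ones were Col22a1 (0.35), Col9a1 (0.31), Col9a2 (-0.031) and Col19a1 (-0.18), 3 of which are known from cartilage or muscle junctions, and 0 of the 9 FACIT genes reached 2-fold by the brightest probe set. The other probe sets of Col22a1 lay below 0 (-0.27 and -0.012).

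By their brightest probe sets, the chains of type VI collagen, which links cells to the matrix around them, were unequal. Col6a3 went from 10.20 to 11.37 (1.17, 2.25-fold), Col6a2 from 10.69 to 11.18 (0.49), and Col6a1 from 10.61 to 10.88 (0.27). The second probe set of Col6a2, whose probes can bind more than 1 transcript, gave 0.24. The difference of Col6a1 minus that of Col6a3 was -0.90 and that of Col6a2 minus Col6a3 was -0.68. In SDs of a difference between 2 probe sets of 1 gene, these were -2.87 and -2.17. The gap of Col6a2 is smaller than the widest between bright probe sets of 1 collagen gene (0.87, Col12a1). Col6a1 and Col6a3 had 1 probe set each. All 3 chains enter the common type VI molecule. Housekeeping-centred, Col6a1 was at -0.092. Col6a4 (-0.21) and Col6a5 (0.13), which encode alternative chains, were dim.

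Among the other collagens, the largest differences were those of Col15a1 and Col18a1. These encode multiplexins, which bind basement membranes to the tissue next to them, and the C-terminal piece of the latter is endostatin. Col15a1 went from 9.30 to 10.40 (1.10, 2.15-fold) on its only probe set. Col18a1 went from 8.58 to 9.56 (0.98), with 1.05 by its second probe set. Col7a1, the collagen of the anchoring fibrils of skin, differed by 0.12 (6.84 and 6.96), and by -0.25 when housekeeping-centred. By their brightest probe sets, the transmembrane collagens Col13a1, Col17a1, Col23a1 and Col25a1 lay between -0.26 and -0.074. Only Col25a1 was bright (7.66 and 7.47, -0.19). The other probe sets of Col23a1 gave 0.15 and 0.10. Control-centred, all 4 genes lay above 0, from 0.057 (Col23a1) to 0.24 (Col13a1), with Col25a1 at 0.13. Col26a1 was dim (0.14).

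**Figure D4:**
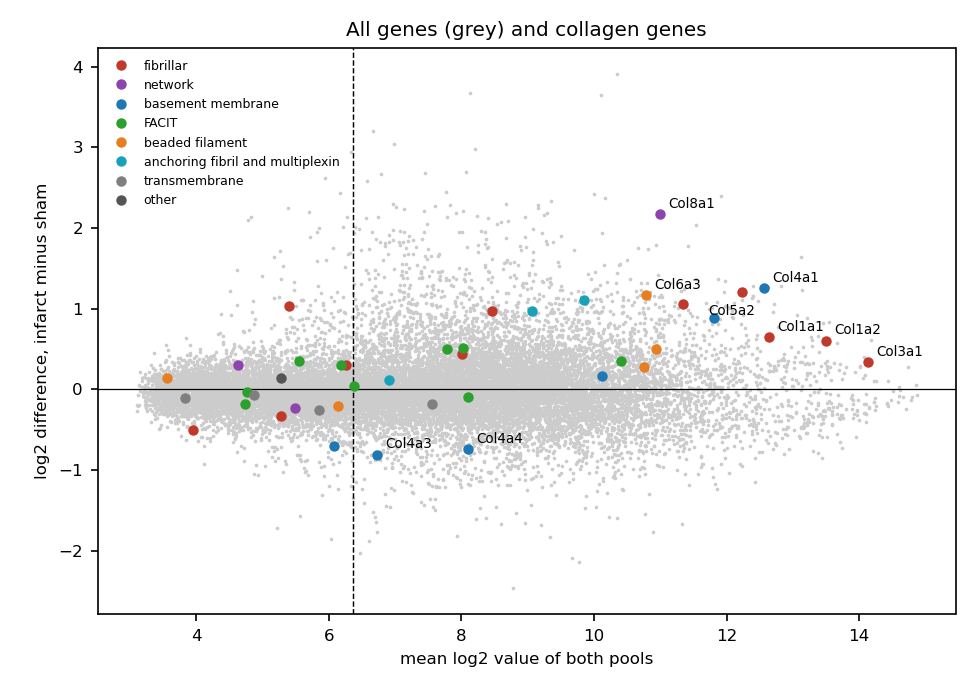
Log2 difference (infarct minus sham) against the mean log2 value of both pools for 18193 genes (grey) and the 42 collagen genes, coloured by class, with the dashed line at the brightness limit of 6.36. Col8a1 lies at 2.17 and most bright collagen genes lie above 0, while Col4a3 (-0.81) and Col4a4 (-0.74) lie below.

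The 4 collagen genes that the study followed as fibrosis markers, Col1a1, Col1a2, Col6a1 and Col14a1, were not those of the largest difference here. By their brightest probe sets, they held the places 10, 11, 18 and 16 among the 25 bright members, from the highest. Of the 4, 0 reached 2-fold, against 6 of the other 21. The background is 3.62% of all bright genes, so 0 of 4 does not set them apart from genes at large. Their median was 0.47 and that of the other bright members 0.50. With the probe sets of a gene averaged, the values were 0.42, 0.85, 0.27 and 0.22 in the same order, so that places shift. A dim probe set of Col1a2 gave 1.07. These are values of 1 pool each, and places a few hundredths apart cannot be told apart by them. The study measured these markers by qRT-PCR, with the infarcted and the remote part of the heart taken separately. It reported marked increases of all 4 in the infarcted part at 3 days. Neither the measure nor, as far as stated, the tissue part is the same as in the pools used here.

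Genes that process, bind and cut collagen were higher in most cases too. Over all bright genes, 49.6% lay above 0 and 3.62% were at least 2-fold higher. Of 25 bright genes for collagen processing, 22 lay above 0 and 3 were at least 2-fold higher, with a median of 0.58. These were the crosslinking enzymes Lox (9.95 and 11.69, 1.74) and Loxl3 (8.23 and 9.94, 1.71), and Serpinh1, the chaperone of procollagen (11.52 and 12.54, 1.02). Of 8 bright collagen receptors, 7 lay above 0 (median 0.72), and Lair1 (1.06), an inhibitory receptor of leukocytes, and Itga1 (1.05), an integrin chain, were at least 2-fold higher, followed by Cd93 (0.92), a receptor of endothelial and myeloid cells. The 9 bright collagenases and inhibitors had a median of 0.52, 6 of them above 0. Timp1, an inhibitor of metalloproteinases, went from 10.52 to 12.55 (2.04), Mmp14, a membrane-bound collagenase, from 9.27 to 10.64 (1.37), and Mmp9, a gelatinase of leukocytes, from 7.25 to 7.99 (0.74). Housekeeping-centred, 18 of 25, 6 of 8 and 5 of 9 genes of these lists lay above 0, where the median of all bright genes was -0.37. At least 2-fold higher were then 2, 0 and 2 genes, against 1.58% of all bright genes. Control-centred, 11, 5 and 3 genes were, against 7.89% of all bright genes. Neither receptor thus kept its call with the housekeeping genes as the zero.

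Markers of fibroblasts, the main makers of collagen, were divided. Of 10 such markers, 5 lay above 0 (3 when housekeeping-centred and 7 when control-centred), the median was -0.027, and the list ran from -0.79 (Gsn) to 1.32 (Mfap5). Its mean value was 11.01 (sham) and 11.16 (infarct). Over all bright genes the median was 0 as deposited, -0.37 when housekeeping-centred and 0.32 when control-centred. At least 2-fold higher were 3.62% of them as deposited and 1.58% when housekeeping-centred. All 9 macrophage markers lay above 0 (8 when housekeeping-centred; median 0.57), with mean values of 9.88 and 10.67, and all 8 bright cell division genes were at least 2-fold higher (7 when housekeeping-centred; median 2.02). The 7 smooth muscle markers had a median of 0.015, with 4 above 0 (2 when housekeeping-centred). They ran from -0.77 (Myh11) to 0.80 (Tagln). Acta2, whose product the paper uses as a marker of myofibroblasts, was at 0.54. The part of the numbers of these cells in the collagen values was not tested.

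**Figure D5:**
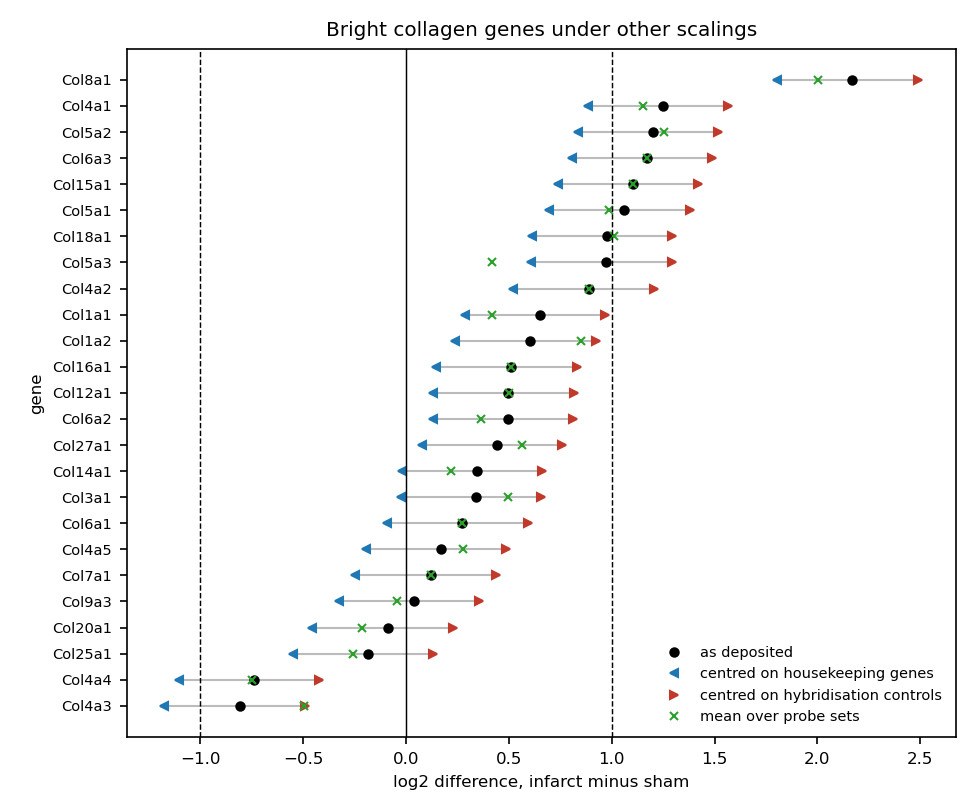
Log2 difference (infarct minus sham) of the 25 bright collagen genes as deposited (black), after centring on housekeeping genes (blue) or on hybridisation controls (red), and with the probe sets of a gene averaged (green crosses), with dashed lines at 2-fold. Col8a1 lies at 1.81 at the lowest, 6 genes above 0 as deposited lie below it when housekeeping-centred (Col14a1, Col3a1, Col4a5, Col6a1, Col7a1 and Col9a3), and Col4a3 and Col4a4 stay below 0.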

How the data were processed

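The authors deposited log2 values made by RMA from 2 GeneChip Mouse Genome 430 2.0 arrays, a method that subtracts background, equalises the arrays and then condenses the probes of a set into a single value. Which software ran it is not given in the sources used here. RMA makes the distributions of the arrays alike, so that a difference in total mRNA cannot be seen. The column medians were 6.36 (sham) and 6.35 (infarct), the number of arrays limits the precision, and no scanner file was used here.

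Of 45101 probe sets, 34945 had 1 symbol, 932 had several and 9160 had none, and the last kinds and 64 controls were left out. All 82 collagen probe sets matched RefSeq genes by Entrez identifier. Where a gene had several probe sets, that of highest mean value stood for it. The filter used the mean of both arrays, so that it favours no direction. All members are named, and the classes come from general knowledge. Of the related lists, the 3 bright genes of largest difference were named, and of the marker lists the lowest or highest gene and those a count turns on. Acta2 was named as well, as a marker of the paper. The members and lists were chosen with earlier results of these data known. Scaling, choice of probe set, filter and threshold were varied. The steps were tested on simulated data for infarct against sham (11650 genes): 198 of 198 shifted genes passed 2-fold. All simulated shifts lay beyond 2-fold and the noise was small, so that this outcome was fixed by the settings. It checks the steps and says nothing on genes near 2-fold. Python 3.11.15, numpy 2.4.6, pandas 2.3.3, statsmodels 0.14.6 and matplotlib 3.10.9 were used.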

Additional observations from a re-analysis of the deposited data

How the results depend on the processing

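The counts and medians over the collagen genes were recomputed after median centring, quantile normalization, a loess trend removed (span 0.4), the 3 sets of reference probes, averaged probe sets, without probe sets that can bind several transcripts, and with other filters. Of these values 72 moved by less than the spread between probe sets (or 1.5 times for counts) and 18 moved by more. Of the values of single bright genes under the scalings and choices of probe set, 146 moved by less than that spread and 54 by more. No gene past 2-fold changed sign, though offsets of at most 0.37 could not bring this about. Centring on the housekeeping genes left 1 gene at least 2-fold higher and 2 lower, with medians of 0.13 (all), 0.29 (fibrillar), -0.20 (basement membrane), -0.021 (FACIT) and 1.81 (network, Col8a1 alone). Centring on the hybridisation controls gave 0.82, 0.97, 0.49, 0.66 and 2.49 in the same order. Both shifts follow from the offset subtracted. At a threshold of 1.4, 1 gene (Col8a1) was higher, and the share of all bright genes past that threshold was not counted. Without the filter, the basement membrane median was -0.27 (Col4a6 enters) and the network median 0.31, and with the filter on at least 1 array the former was -0.27 too. With the 75th percentile as the filter, the median over all was 0.93 and that of the basement membrane genes 0.89 (fewer genes enter). No paired analysis was possible because each group is 1 pool, and no sample could be left out for the same reason. Dim values limit the other 17 genes.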
